A study of Chlamydomonas reinhardtii with 16 samples.

Results

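Dark-grown wild-type cells of the green alga Chlamydomonas reinhardtii that had been fed biliverdin IXα (BV) were compared after 30 min of white light and before it, gene by gene. The genes described are those at 1 RPKM (reads per unit of gene length and per unit of library depth) or more in at least 2 of the 4 libraries of this comparison, which gave 13115 of the 17301 genes in the deposited table. The light group was strain 4A+, the wild type, with 0.1 mM BV after 30 min under white light with a photon flux density of 150 µmol m-2 s-1, and the dark group was the same strain with 0.1 mM BV, harvested before the light was switched on. Light and dark groups of 4A+ without BV and of hmox1, a mutant named for heme oxygenase, with BV served as comparisons, and hmox1 without BV completes the study's 16 libraries in 8 groups of 2. All 8 groups were grown at 22 °C in darkness on acetate medium that held 0.5% methanol, so the cells without BV had the solvent too. Whether replicate libraries stem from separate cultures is not labelled, so the p-values reflect library-to-library spread that may be technical.

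Chlamydomonas can grow in the dark on acetate and changes to photosynthesis when light returns. Heme oxygenase opens the ring of heme to give biliverdin, a linear tetrapyrrole, or bilin, from which plants and cyanobacteria make the chromophores of phytochromes and phycobiliproteins. The study asked about signalling by bilins during greening. The comparison within BV-fed wild type shows how transcript levels after the light period differed from those before it, with BV added. The dark group was harvested before the light was switched on, and no group was kept in darkness for the length of the light period. Light was therefore not tested apart from elapsed time or handling. The term light effect below means the difference between light and dark groups.

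Genes are given by the identifiers of the deposited table. Of the 13115 genes described, 10116 (77.1%) matched a locus tag of the RefSeq assembly Chlamydomonas_reinhardtii_v5.5, and none of the files pairs identifiers with names, so no names or functions are given, and which identifier is the mutated gene was not determined. The light libraries held 22034136 and 24868854 reads in genes and the dark libraries 23118908 and 33205075, within the range of 10213599 to 43414933 over all 16. At these depths 3 reads of a 2000-nt gene correspond to 0.0681 and 0.0603 RPKM in the light libraries and to 0.0649 and 0.0452 RPKM in the dark libraries. Such floors cover counting error only.

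Most genes met the 1 RPKM rule in both conditions. Of the 13115, 10002 reached 1 RPKM in both light and both dark libraries, 141 in both light and neither dark library, 2179 in both dark and neither light library, and 793 in another combination. At the edge of the rule, Cre44.g787950 entered with 0.792 and 0.862 RPKM in light, against 1.09 and 1.00 RPKM in the dark. Cre12.g547351 stayed out with 0.694 and 0.950 RPKM in light, against 1.00 and 1.01 RPKM in the dark, its second highest value being 0.999823 RPKM. There were 206 genes with a second highest value of 1 to 1.1 RPKM just inside and 189 at 0.9 to 1 RPKM just outside.

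Most transcripts of BV-fed wild type differed between the light and the dark group. Levels were higher in light for 3216 of the 13115 genes (24.5%) and lower for 7293 (55.6%), 10509 in all (80.1%), by limma on log2(RPKM + 1) with Benjamini-Hochberg adjusted p under 0.05. Over all 13972 genes tested the shares were 23.4% higher, 55.5% lower and 78.9% in either direction, so those for the genes described are near the background. Counts of falls can include genes that entered through the dark libraries alone. The 1 RPKM rule was met in both dark and neither light library by 2179 genes, against 141 the other way. The median log2 difference, light minus dark, was −0.38, and 5% of genes lay under −1.73 and 5% above 1.46. The 2 light libraries lay wholly above the 2 dark libraries for 3640 genes (27.8%, against 26.8% of all genes tested) and wholly below for 7878 (60.1%, against 60.4%). Here 2-fold and 8-fold mean differences of 1 and 3 in log2(RPKM + 1), which for low genes are not ratios of RPKM. Among called genes 1190 rose 2-fold or more (9.07%, against 8.53% of all tested) and 2794 fell (21.3%, against 20%). At 8-fold or more 104 were higher (0.793%, against 0.744%) and 98 lower (0.747%, against 0.701%). The added 1 RPKM caps the fall of genes low in the dark, so these counts do not weigh the 2 directions evenly. Median levels were 5.23 RPKM in the dark for the 2-fold fallers and 29.3 RPKM in light for the 2-fold risers.

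How many genes counted as higher or lower depended on how the libraries were scaled to each other. The counts above use the deposited RPKM scale, in which values are relative to the reads of each library. With median-ratio scaling, which sets the typical gene to no change and moves the median difference by 0.38 to 0.00, 5195 genes were higher and 5130 lower, or 50.3% higher among those called, against 30.6% on the deposited scale. With quantile scaling 4533 were higher and 5277 lower, and 46.2% of the called genes were higher. All 3216 genes called higher on the deposited scale were still called higher with median-ratio scaling, whereas 5130 of the 7293 called lower were still called lower and 164 of them were called higher. That scaling moves differences upward, which favours keeping the rises. With quantile scaling 2959 of the 3216 were still called higher and 16 were called lower. Of the 7293, 4925 were still called lower with quantile scaling and 274 were called higher. A change in RNA per cell and a change in the share of one transcript cannot be told apart from such libraries, nor can fewer cells of a type and less RNA per cell.

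**Figure D1:**
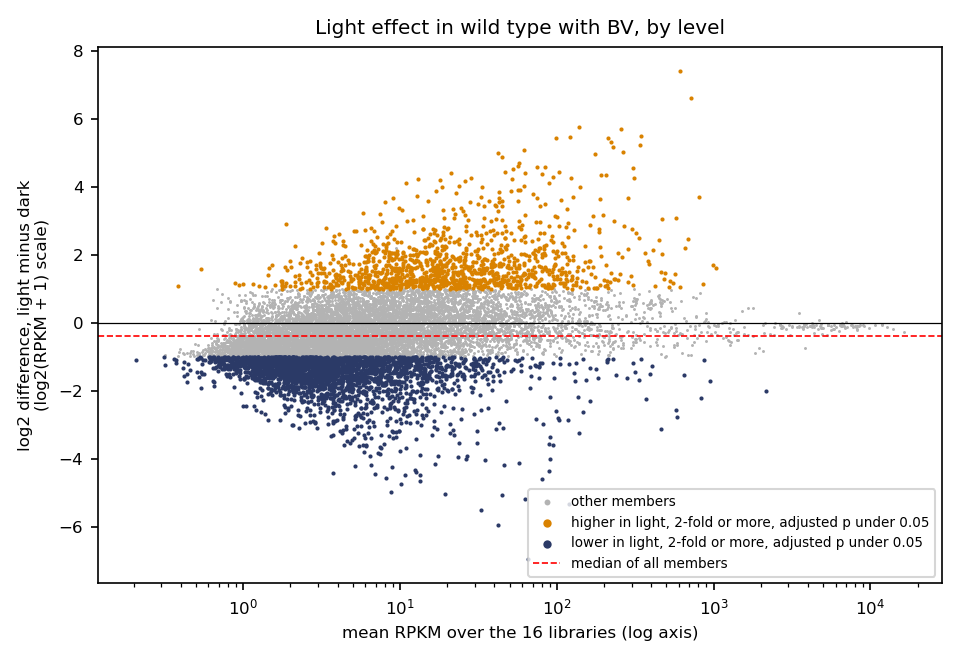
Each point is 1 of the 13115 genes, placed by its mean RPKM over the 16 libraries (log axis) and by its log2 difference, light minus dark, in wild type with BV. Genes 2-fold or more higher (1190) and lower (2794) at adjusted p under 0.05 are coloured, and the dashed line marks the median of −0.38, below 0.

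The balance of rises and falls differed between levels of expression. Levels here are means over all 16 libraries. At 10 to 30 RPKM it was even, with 40.3% of 2528 genes called higher in light and 39.6% lower. From 30 to 100 RPKM 51.6% of 1257 genes were higher and 28.2% lower, and from 100 to 1000 RPKM 49.1% of 586 were higher and 34.5% lower. Of the 133 genes at 1000 RPKM or more, 3.76% were called higher and 33.1% lower, and 1 rose 2-fold and 1 fell 2-fold. Scaling mattered at these levels too. With median-ratio scaling 59.8%, 73.8%, 70.5% and 56.4% of the genes in these 4 classes were higher and 21.5%, 11.5%, 13.1% and 3.76% lower, so that in the highest class the direction turned. Below 10 RPKM no reading is given to the shares, because the 1 RPKM rule was applied to the libraries compared. It was reached in both dark libraries and neither light library by 2179 genes, against 141 the other way. A gene of low mean level that entered through the dark libraries alone had to be lower in light. How far this moved the shares was not tested.

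**Figure D2:**
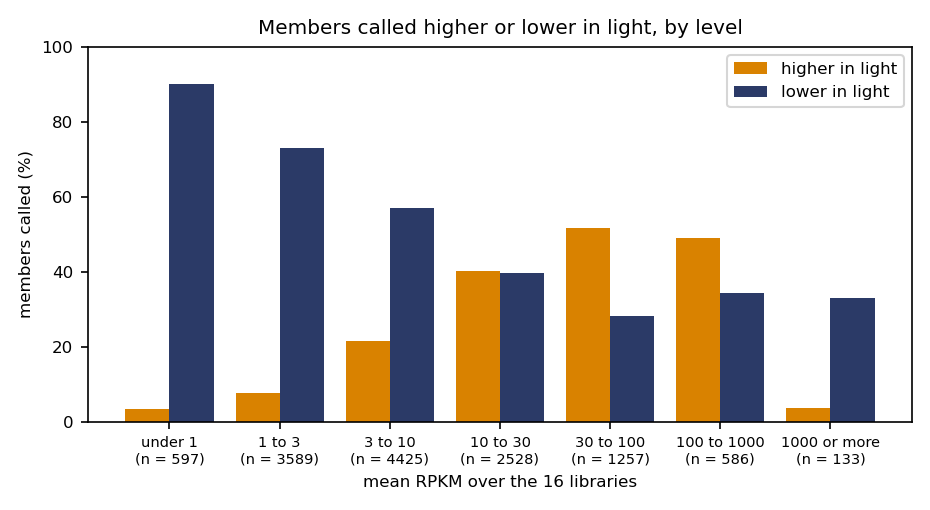
Bars give the percentage of genes called higher and called lower in light (limma, adjusted p under 0.05) in 7 classes of mean RPKM over the 16 libraries. From 10 to 30 RPKM the bars are level, at 40.3% higher and 39.6% lower, and at 30 to 100 RPKM 51.6% were higher and 28.2% lower. In the 3 classes under 10 RPKM the 1 RPKM rule on the libraries compared can shape the bars, by an amount that was not tested.

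Strong risers gained, and strong fallers lost, a large share of the reads. The 1190 genes that rose 2-fold or more had a median level of 29.3 RPKM in light, against 7.83 RPKM in the dark, and the 2794 that fell 2-fold or more had 1.1 RPKM in light, against 5.23 RPKM in the dark. The risers made up 17.5% and 20.2% of the reads in genes in the 2 light libraries, against 4.96% and 5.09% in the dark libraries. The fallers made up 3.06% and 3.44% in light, against 12.6% and 12.4% in the dark. These genes were chosen by this same difference, so the shares describe its size and test nothing. In the 4 libraries of wild type without BV, which did not choose the genes, the risers of BV-fed cells held 23.5% and 24.1% of reads in light, against 5.48% and 5.42% in the dark. In hmox1 with BV they held 15.6% and 16.1% in light, against 6.48% and 6.78% in the dark. Median gene lengths recovered from the RPKM steps were 2272 nt for the risers, 2558 nt for the fallers and 2262 nt for all genes described, and 118 of the 13115 genes were shorter than 200 nt.

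The 12 largest rises all started from dark levels under 16 RPKM. Cre08.g365900 had 352 and 374 RPKM in light, against 1.87 and 0.617 RPKM in the dark, a ratio of means of 291.5 (log2 difference 7.40 ± 0.49 SE, adjusted p = 8.7e-07 by limma). Both light libraries lay far above both dark libraries, although the dark libraries differed from each other. Cre12.g505050 had 237 and 320 RPKM in light, against 4.06 and 4.03 RPKM in the dark (log2 difference 5.78 ± 0.11, limma adjusted p = 1.3e-15). Cre02.g106450 had 388 and 565 RPKM in light, against 8.08 and 8.09 RPKM in the dark (5.69 ± 0.13, limma adjusted p = 2.7e-14). In both genes the second light library stood well above the first, and the dark libraries were nearly equal. Cre13.g588150, the highest of the 12 in BV-fed light, had 562 and 691 RPKM, against 15.1 and 15.9 RPKM in the dark (5.24 ± 0.10). Cre08.g384650 had 69.7 and 74.8 RPKM in light, against 0.984 and 0.428 RPKM in the dark (5.44 ± 0.31). The other 7, Cre17.g725750, Cre24.g768900, Cre19.g756100, Cre02.g093750, Cre06.g283900, Cre02.g130500 and Cre03.g205950, had log2 differences of 5.46, 5.44, 5.33, 5.18, 5.10, 5.04 and 4.99. The least precise of them was Cre02.g130500, at 191 and 203 RPKM in light, against 3.17 and 7.69 RPKM in the dark (SE 0.81, limma adjusted p = 4.0e-04).

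The largest falls in light went as far. Cre16.g661200 had 0.483 and 1.12 RPKM in light, against 231 and 207 RPKM in the dark, 273.2 times lower by the ratio of means (log2 difference −6.95 ± 0.40, limma adjusted p = 2.0e-07). Cre06.g263200 had 0.957 and 2.27 RPKM in light, against 154 and 155 RPKM in the dark (−5.94 ± 0.32). Cre13.g603550 had 0.169 and 0.375 RPKM in light, against 61.9 and 52.7 RPKM in the dark (−5.52 ± 0.28). In all 3 the second light library kept more than 2 times the level of the first, and neither came near the dark level. Cre12.g518800 had 0.451 and 0.550 RPKM in light, against 47.0 and 45.7 RPKM in the dark (−4.98 ± 0.10), and Cre07.g320750 had 0.116 and 0.215 RPKM in light, against 27.1 and 26.5 RPKM in the dark (−4.58 ± 0.10). The remaining 7 of the 12 largest falls were Cre10.g424583, Cre10.g424550, Cre17.g707350, Cre11.g474100, Cre10.g423200, Cre16.g673605 and Cre03.g164600, with log2 differences of −5.34, −5.18, −5.08, −5.03, −4.74, −4.66 and −4.60. In the dark without BV, Cre13.g603550 had only 8.23 and 7.23 RPKM and Cre12.g518800 only 11.1 and 10.2 RPKM. Their light effects with BV minus those without differed by −2.81 ± 0.39 and −1.86 ± 0.14 (limma adjusted p = 3.7e-04 and 9.0e-08). For the rest of the 12 falls this difference was not called. All 24 of these rises and falls kept their direction and their call under each alternative tried.

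**Figure D3:**
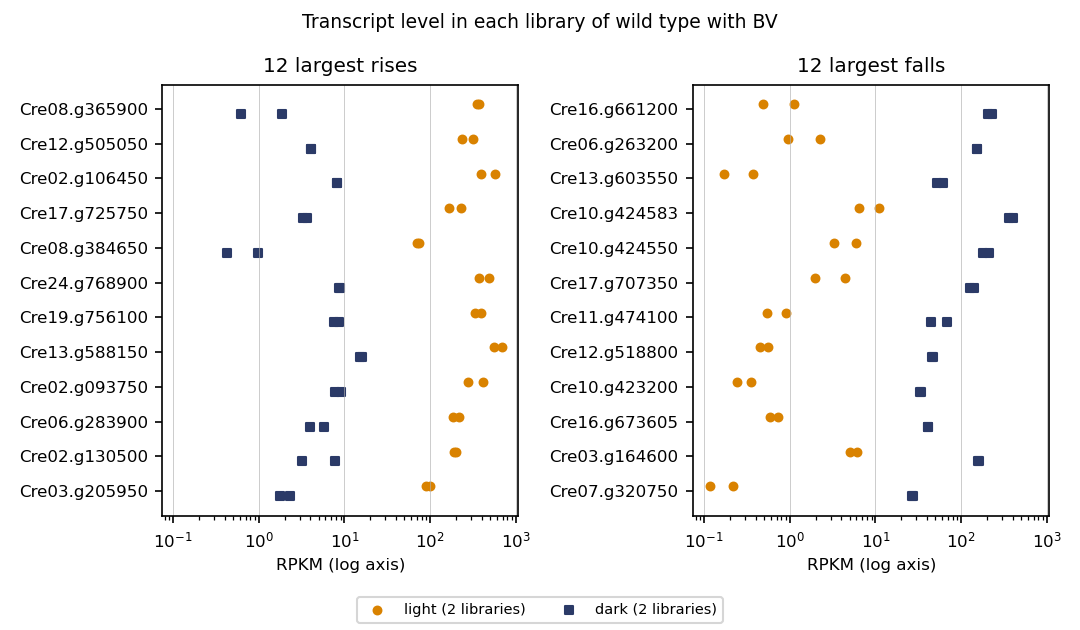
RPKM (log axis) of the 12 largest risers and the 12 largest fallers in light, 1 point per library, for light and dark libraries of wild type with BV. The 2 light points and the 2 dark points of each gene stand far apart, for example 352 and 374 against 1.87 and 0.617 RPKM for Cre08.g365900.

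No gene with 20 or more reads in each light library had 0 reads in both dark libraries, but 2 genes went the other way. Cre16.g663000 had 0 reads in both light libraries, against 106 and 133 reads in the dark, at least 66.3-fold lower with a floor of 3 reads over the light group. Cre09.g398000 had 0 reads in both light libraries, against 38 and 53 reads in the dark, at least 25.3-fold lower by the same floor. Both were picked out after their values were seen. In the other groups Cre16.g663000 had 1 read in light, against 63 in the dark, in wild type without BV, and 10 reads in light, against 134 in the dark, in hmox1 with BV, each summed over 2 libraries.

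On the deposited scale most of the most abundant transcripts named here differed little between light and dark. Of the called risers, Cre03.g204250 was the highest, with 3069 and 3716 RPKM in light, against 2787 and 2758 RPKM in the dark (log2 difference 0.28 ± 0.08, limma adjusted p = 3.0e-03). That call was lost when the 4 libraries compared were fitted alone (limma adjusted p = 0.064). Cre13.g580000 stood out, with 2045 and 1845 RPKM in light, against 657 and 610 RPKM in the dark, 3.07-fold higher (1.62 ± 0.08, limma adjusted p = 1.5e-11). Cre41.g786600 (1726 and 1939 RPKM in light, against 1373 and 1349 RPKM in the dark) and Cre02.g077800 (1602 and 1577 RPKM in light, against 1280 and 1240 RPKM in the dark) differed by log2 0.43 and 0.33. With median-ratio scaling the differences of Cre03.g204250, Cre41.g786600 and Cre02.g077800 were 0.77, 0.91 and 0.82. Of the called fallers, Cre02.g120150 was the highest, with 18983 and 14269 RPKM in light, against 20360 and 19457 RPKM in the dark (−0.27 ± 0.10, limma adjusted p = 0.016). Its first light library was close to the dark level, and without the second light library the difference was −0.07 (limma adjusted p = 0.34). Cre23.g766250, Cre12.g537800 and Cre03.g182551, at 4783 to 8459 RPKM, differed by log2 −0.20, −0.12 and −0.25 on the deposited scale, and with median-ratio scaling these 3 and Cre02.g120150 had positive differences of 0.28, 0.36, 0.23 and 0.21. Without light replicate 2 the difference of Cre03.g182551 was −0.04 (limma adjusted p = 0.55). In the fit of the 4 libraries compared alone, all 4 of these fallers lost their call, with limma adjusted p of 0.14 for Cre02.g120150, 0.14 for Cre23.g766250, 0.36 for Cre12.g537800 and 0.16 for Cre03.g182551.

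The 2 light libraries of BV-fed wild type had the largest median spread of any group's pair. The median SD of log2(RPKM + 1) between them was 0.123, against 0.0523 for the dark libraries of the same cells and 0.0549 to 0.0757 in the other 6 groups. By Pearson correlation across genes the pair did not rank last, at 0.9948, against 0.9944 for the dark pair of wild type without BV and 0.9954 or more for the others. Light replicate 1 was lower than light replicate 2 by a median of 0.15 on the log2 scale. A gap of 0.5 or more on the log2 scale separated the 2 light libraries for 4.57% of genes and the 2 dark libraries for 0.633%. Against the mean of the dark libraries the median effect was −0.46 in light replicate 1 and −0.30 in light replicate 2. For the genes that rose 2-fold or more it was 1.44 in replicate 1 and 1.62 in replicate 2, and for those that fell it was −1.41 and −1.32. The counts without light replicate 1 were 3435 higher and 6673 lower, and without light replicate 2 they were 2877 higher and 7590 lower.

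Genes with strong responses had neighbours with the same response more often than genes in general did. In the gene order of the RefSeq assembly, 7298 pairs of neighbouring genes were both among those described, and 40 of these pairs overlapped. A neighbour of a gene that rose 2-fold or more was itself such a riser in 272 of 1411 cases (19.3%), against 9.67% for neighbours of any gene described. A neighbour of a gene that fell 2-fold or more was itself such a faller in 908 of 3081 cases (29.5%), against 21.1%. Without overlapping pairs the shares were 19.2% and 29.4%. The longest unbroken run of 2-fold fallers held 6 genes, Cre10.g448750 to Cre10.g448977. The longest runs of risers held 4 genes each, Cre13.g569350 to Cre13.g569500 and Cre16.g664400 to Cre16.g664550. These counts are a description without a test, and the fallers can include genes that met the 1 RPKM rule through the dark libraries alone.

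The light response of wild type was not the same with BV as without it. The light effect was more positive with BV than without it for 3056 of the 13115 genes (23.3%, against 22.3% of all genes tested) and more negative for 1232 (9.39%, against 9.17%), 4288 in all (32.7%, against 31.4%), by limma with adjusted p under 0.05 for the difference of the 2 effects. The 2 effects share no library. The median light effect was −0.38 with BV and −0.58 without BV, and the median difference was 0.16. With median-ratio scaling, which takes such shifts out, 1854 genes were more positive with BV and 2624 more negative, and with quantile scaling 2039 were more positive and 1680 more negative, so which direction was the more frequent differed between scales.

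Called directions were mostly shared. Of the 3216 genes that rose with BV, 2362 also rose without BV (73.4% of the risers with BV and 83.2% of the 2838 without), and 251 fell without BV. Of the 7293 that fell with BV, 6886 also fell without BV (94.4% of the fallers with BV and 82.9% of the 8311 without), and 98 rose without BV. For all 251 and all 98 of these opposite genes the difference itself was called. These genes were chosen for called effects of opposite sign, so a called difference was nearly given by that choice and tests nothing further. With median-ratio scaling there were 161 and 141 such genes, and with quantile scaling 194 and 143. The gap between shared rises (73.4%) and shared falls (94.4%) depended on the scale. With median-ratio scaling the shares were 87.0% and 86.5%, and with quantile scaling 79.7% and 86.6%. On the deposited scale 2838 of all 13115 genes described rose without BV and 8311 fell, which favours shared falls.

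Genes that rose strongly in hmox1 with BV had a lower median rise in wild type with BV than without it. To choose genes without the libraries compared, they were grouped by their light effect in hmox1 with BV, which shares the BV treatment with 1 side of the comparison. The 691 genes that rose 2-fold or more there had a median light effect of 1.89 in wild type with BV, against 2.30 in wild type without BV, and a median difference of −0.32, against 0.16 for all genes described. Among them 67 were more positive with BV (9.70%) and 286 more negative (41.4%). The lower rise with BV was seen on all 3 scales, with a median difference of −0.52 with median-ratio scaling and −0.28 with quantile scaling. The 807 genes that fell 2-fold or more in hmox1 with BV had a median effect of −1.89 with BV, against −2.07 without BV in wild type. Their median difference of 0.13 turned to −0.04 with median-ratio scaling and −0.07 with quantile scaling.

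Among the 12 largest rises, some were lower with BV and others were not. Cre08.g384650 reached 69.7 and 74.8 RPKM in light with BV, against 400 and 403 RPKM in light without BV, and its light effects differed by −1.99 ± 0.44 on the log2 scale (limma adjusted p = 7.0e-03). Cre08.g365900 had 352 and 374 RPKM in light with BV, against 2134 and 2095 RPKM in light without BV. Its difference of light effects, −1.79 ± 0.70, did not pass (limma adjusted p = 0.087), while its light levels differed by −2.54 on the log2 scale (limma adjusted p = 3.0e-03). Cre02.g130500 had 191 and 203 RPKM in light with BV, against 1139 and 1106 RPKM in light without BV (−2.51, limma adjusted p = 0.034). Its difference of light effects, −2.14 ± 1.15, did not pass either (limma adjusted p = 0.20). Smaller differences of −0.41 to −0.59 were called for Cre12.g505050, Cre02.g106450, Cre17.g725750, Cre19.g756100 and Cre13.g588150. Cre03.g205950 had 90.1 and 100 RPKM in light with BV, against 89.2 and 90.2 RPKM in light without BV, a difference of light effects of −0.06 ± 0.17. Cre06.g283900 went the other way, with 183 and 215 RPKM in light with BV, against 86.4 and 82.0 RPKM in light without BV, a higher light level by 1.23 on the log2 scale (limma adjusted p = 5.3e-04). Its difference of light effects, 0.70 ± 0.29, did not pass (limma adjusted p = 0.093).

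Among genes that met the conditions for naming, the largest negative differences belonged to a pair that reached far lower light levels with BV. Cre01.g016600 had 21.7 and 15.4 RPKM in light, against 1.11 and 0.110 RPKM in the dark with BV, and 1000 and 849 RPKM in light, against 2.12 and 0.997 RPKM in the dark without BV. Its light effects differed by −4.87 ± 0.66 (limma adjusted p = 6.2e-04). Cre01.g016750 had 20.8 and 15.7 RPKM in light, against 0.361 and 0.0718 RPKM in the dark with BV, and 711 and 590 RPKM in light, against 0.759 and 0.361 RPKM in the dark without BV. Here the difference was −4.73 ± 0.44 (limma adjusted p = 3.6e-05). The light levels without BV were many times those with BV, in both libraries of each group, while all dark levels were low. With a pseudocount of 0.1 RPKM the differences were −4.02 and −3.99 and missed the threshold (limma adjusted p = 0.063 and 0.054). In hmox1 the same 2 genes had 13.0 and 12.5 RPKM and 23.0 and 19.0 RPKM in light with BV, against 571 and 516 RPKM and 444 and 420 RPKM in light without BV.

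In the next 2 genes the dark libraries with and without BV differed as well. Cre05.g231450 had 1.39 and 1.46 RPKM in light, against 11.6 and 11.5 RPKM in the dark with BV, and 7.39 and 6.95 RPKM in light, against 1.21 and 1.13 RPKM in the dark without BV (difference −4.28 ± 0.14, limma adjusted p = 1.3e-11). It was lower in light with BV and higher in light without. Cre03.g163950 had 0.213 and 0.245 RPKM in light, against 26.4 and 24.6 RPKM in the dark with BV, and 0.332 and 0.0459 RPKM in light, against 0.515 and 0.596 RPKM in the dark without BV (difference −4.03 ± 0.15, limma adjusted p = 2.1e-11). Its dark level was higher with BV than without, by 4.09 on the log2 scale (limma adjusted p = 3.6e-13), and its light level was low either way.

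The 4 largest positive differences among genes that met the conditions for naming were of several kinds. Cre07.g346950 had 55.6 and 54.6 RPKM in light, against 19.4 and 18.9 RPKM in the dark with BV, and 0.703 and 0.701 RPKM in light, against 5.64 and 6.36 RPKM in the dark without BV (difference 3.52 ± 0.12, limma adjusted p = 1.8e-11). It rose with BV and fell without. Cre18.g748800 had 11.5 and 6.01 RPKM in light, against 3.19 and 2.38 RPKM in the dark with BV, and 1.91 and 1.42 RPKM in light, against 12.3 and 6.55 RPKM in the dark without BV (3.23 ± 0.41, limma adjusted p = 2.0e-04). This gene also rose with BV and fell without, with wide gaps between replicate libraries. Cre03.g192050 had 29.7 and 36.1 RPKM in light, against 40.6 and 44.0 RPKM in the dark with BV, and 2.85 and 2.51 RPKM in light, against 41.2 and 43.6 RPKM in the dark without BV (3.20 ± 0.14, limma adjusted p = 1.7e-10). It fell slightly with BV and strongly without. Cre02.g118550 had 13.4 and 27.4 RPKM in light, against 160 and 159 RPKM in the dark with BV, and 2.42 and 0.739 RPKM in light, against 170 and 161 RPKM in the dark without BV (3.11 ± 0.62, limma adjusted p = 5.5e-03).

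Changes of 2-fold or more in opposite directions, called in both conditions, were few. There were 10 genes that rose with BV and fell without BV and 5 that fell with BV and rose without BV, and the following were picked from these after their values were seen. Cre08.g372200, the most abundant, had 298.5 and 255.5 RPKM in light, against 133 and 109 RPKM in the dark with BV, and 10.01 and 8.50 RPKM in light, against 41.0 and 33.1 RPKM in the dark without BV (difference 3.08 ± 0.18, limma adjusted p = 4.5e-08). Cre10.g434350 had 29.5 and 28.4 RPKM in light, against 8.17 and 8.80 RPKM in the dark with BV, and 1.18 and 1.15 RPKM in light, against 4.31 and 4.75 RPKM in the dark without BV (3.01 ± 0.13). Both rose 2-fold or more with BV and fell 2-fold or more without it. Cre12.g517700 had 6.65 and 9.42 RPKM in light, against 18.0 and 18.2 RPKM in the dark with BV, and 41.0 and 41.8 RPKM in light, against 4.93 and 5.47 RPKM in the dark without BV (−3.87 ± 0.16). With median-ratio scaling 6 and 6 genes met this criterion, and with quantile scaling 4 and 3.

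**Figure D4:**
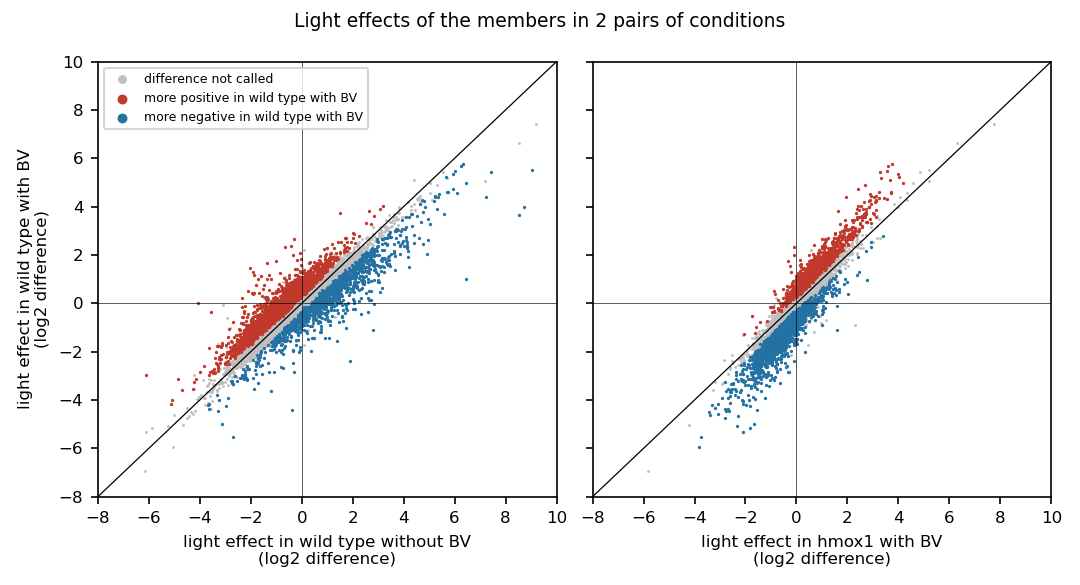
Each point is 1 of the 13115 genes. The vertical axis gives the log2 light effect in wild type with BV and the horizontal axes that of wild type without BV (left) and hmox1 with BV (right), with the diagonal marking equal effects. Colours mark genes whose difference of effects was called, 3056 more positive and 1232 more negative against wild type without BV, and 1477 and 3799 against hmox1 with BV.

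With BV present in both strains, the light effects of wild type were on the whole larger than those of hmox1. The light effect was more positive in wild type for 1477 of the 13115 genes (11.3%, against 10.9% of all genes tested) and more negative for 3799 (29.0%, against 27.9%), 5276 in all (40.2%, against 38.7%), by limma with adjusted p under 0.05, again between effects that share no library. The median light effect was −0.38 in wild type and −0.16 in hmox1, and the median difference was −0.20. The balance again followed the scaling, with 3140 more positive and 2339 more negative under median-ratio scaling and 2197 and 2011 under quantile scaling. Of the 3216 risers in wild type, 2410 also rose in hmox1 (74.9% of the wild-type risers and 87.2% of the 2764 in hmox1), and 21 fell. Of the 7293 fallers, 5151 also fell in hmox1 (70.6% of the wild-type fallers and 96.5% of the 5340 in hmox1), and 66 rose. With median-ratio scaling 71.1% of the wild-type risers and 70.9% of the fallers kept their direction in hmox1. With quantile scaling these shares were 69.3% and 73.4%.

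In both directions the median light effect was larger in wild type than in hmox1 for genes that responded in wild type without BV. The grouping used the light effect in wild type without BV, whose libraries are not in this comparison. The 1277 genes that rose 2-fold or more there had a median light effect of 1.40 in wild type with BV, against 0.99 in hmox1 with BV, and 650 of them were more positive in wild type while 59 were more negative. Their median difference was 0.40, and it was 0.55 with median-ratio scaling and 0.43 with quantile scaling. The 4038 genes that fell 2-fold or more had a median effect of −1.13 in wild type with BV, against −0.64 in hmox1 with BV. Of these, 33 were more positive and 2447 more negative in wild type, with a median difference of −0.50, and of −0.47 and −0.43 with median-ratio and quantile scaling. Grouping by wild type without BV shares the strain with 1 side of this comparison and so favours a larger effect in wild type. No grouping by hmox1 without BV was made, so these medians describe the chosen genes only.

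With BV, single genes differed between the strains in their dark and in their light levels. Cre03.g207800 had 75.8 and 77.3 RPKM in light, against 1.89 and 2.05 RPKM in the dark in wild type with BV, and 50.6 and 59.7 RPKM in light, against 9.55 and 9.62 RPKM in the dark in hmox1 with BV (difference 2.30 ± 0.12, limma adjusted p = 1.0e-08). Cre13.g569400, from 1 of the runs of 4 risers, had 50.6 and 57.6 RPKM in light, against 1.79 and 1.40 RPKM in the dark in wild type, and 20.4 and 21.4 RPKM in light, against 4.88 and 4.39 RPKM in the dark in hmox1 (2.45 ± 0.27, limma adjusted p = 2.9e-05). Both started lower and ended higher in wild type with BV than in hmox1 with BV. In light without BV Cre03.g207800 was lower in wild type, at 136 and 140 RPKM, against 170 and 179 RPKM in hmox1. Cre13.g569400 was higher in wild type there too, at 74.5 and 57.9 RPKM, against 18.1 and 18.3 RPKM in hmox1. Cre01.g053000 had 59.98 and 63.3 RPKM in light, against 3.19 and 3.68 RPKM in the dark in wild type with BV, and 26.1 and 28.3 RPKM in light, against 8.91 and 7.57 RPKM in the dark in hmox1 with BV (2.21 ± 0.17, limma adjusted p = 3.0e-07). In light without BV its levels were close, at 36.9 and 34.3 RPKM in wild type, against 35.1 and 33.1 RPKM in hmox1. Cre16.g652200 had 11.5 and 14.02 RPKM in light, against 1.55 and 1.85 RPKM in the dark in wild type with BV (2.45 ± 0.15, limma adjusted p = 2.5e-08). In the other 12 libraries it stayed between 0.596 and 4.08 RPKM and was lower in light than in the dark in each group's means, and its light effect also exceeded that of wild type without BV, by 3.01 ± 0.15.

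Genes that fell further in wild type differed between the strains in their dark levels, and some in their light levels too. Cre10.g424583 had 6.47 and 11.1 RPKM in light, against 407 and 364 RPKM in the dark in wild type with BV, and 29.1 and 39.0 RPKM in light, against 148 and 151 RPKM in the dark in hmox1 with BV (difference −3.23 ± 0.59, limma adjusted p = 3.5e-03). Cre10.g424550 had 3.25 and 5.96 RPKM in light, against 213 and 179 RPKM in the dark in wild type, and 18.0 and 23.4 RPKM in light, against 74.6 and 76.3 RPKM in the dark in hmox1 (−3.35 ± 0.46, limma adjusted p = 6.2e-04). In both the wild type with BV was higher in the dark and lower in light than hmox1 with BV. In light without BV Cre10.g424583 had 3.55 and 6.32 RPKM in hmox1, against 4.32 and 1.14 RPKM in wild type. Cre10.g424550 had 1.89 and 3.51 RPKM in hmox1 light without BV, against 1.79 and 0.601 RPKM in wild type. Cre12.g518800, at 0.451 and 0.550 RPKM in light, against 47.0 and 45.7 RPKM in the dark in wild type, had 1.44 and 1.44 RPKM in light, against 6.84 and 6.502 RPKM in the dark in hmox1 (−3.33 ± 0.14, limma adjusted p = 1.0e-09). Cre03.g163950, described above for its dark level with BV, had 0.205 and 0.221 RPKM in light, against 2.67 and 2.46 RPKM in the dark in hmox1 with BV (−2.88 ± 0.15, limma adjusted p = 9.8e-09). The only gene that changed 2-fold or more in opposite directions in the 2 strains, on the deposited scale, was Cre12.g517700, with 15.6 and 17.2 RPKM in light, against 4.85 and 4.77 RPKM in the dark in hmox1 with BV (−2.68 ± 0.16, limma adjusted p = 2.5e-08).

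**Figure D5:**
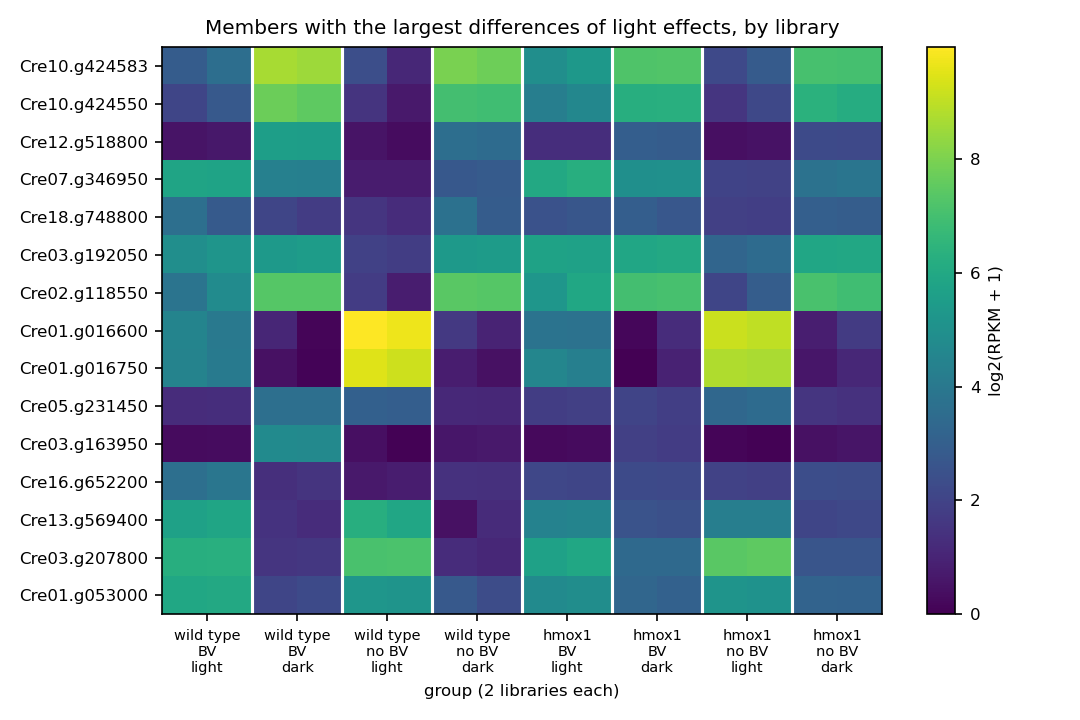
Colour gives log2(RPKM + 1) in each of the 16 libraries for the named genes with the largest differences of light effects, with groups along the horizontal axis in pairs of libraries. Cre01.g016600 is high in light without BV (1000 and 849 RPKM in wild type) and low in light with BV (21.7 and 15.4 RPKM in wild type).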

How the data were processed

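Total RNA was sequenced as single-end 100-nt reads, per the labels' protocols. Bowtie was used, per the submitters' processing notes. Genome build, annotation, counter and Bowtie version are not given in the sources consulted, so no coordinates or sequences are printed. The deposited table holds RPKM values of 17301 genes. Its header names no unit: whole reads and gene lengths were recovered from the RPKM steps for 16851 of 16852 genes above 0 (tolerance 0.1 reads).

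The test was limma 3.58.1 in R 4.3.3 on log2(RPKM + 1), which understates changes of low genes, over all 16 libraries with 1 mean per group (8 residual degrees of freedom), a trend and robust moderation. Testing covered the 13972 genes that reached 1 RPKM in 2 libraries, all 13115 genes described among them. Adjustment was by Benjamini-Hochberg, separately for each comparison. Named genes were called, with libraries not overlapping, 5 RPKM or more on average and 20 or more reads per library in the higher group, and 200 nt or longer: the 12 largest rises and falls, the 4 largest differences in each direction, and the 4 most abundant risers and fallers. The conditions on overlap, level and reads used the 4 libraries of wild type with BV, also for the differences of light effects. Larger differences in genes that failed them there are not named. Genes, lists and tests were chosen with earlier results of these data known. Grouping by protein signature, promoter motif or annotation word was planned and not run, for want of sequences and annotation.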

Additional observations from a re-analysis of the deposited data

Results flagged for a closer look

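Differences between light effects that passed a test of the difference itself are collected here. Between wild type with BV and wild type without BV they comprised 3056 genes more positive and 1232 more negative with BV. The named ones, with their differences on the log2 scale, were Cre07.g346950 (3.52), Cre18.g748800 (3.23), Cre03.g192050 (3.20), Cre02.g118550 (3.11), Cre01.g016600 (−4.87), Cre01.g016750 (−4.73), Cre05.g231450 (−4.28) and Cre03.g163950 (−4.03). Between wild type with BV and hmox1 with BV 1477 genes were more positive and 3799 more negative in wild type. The named ones were Cre16.g652200 (2.45), Cre13.g569400 (2.45), Cre03.g207800 (2.30), Cre01.g053000 (2.21), Cre10.g424550 (−3.35), Cre12.g518800 (−3.33), Cre10.g424583 (−3.23) and Cre03.g163950 (−2.88). Light replicate 1 and light replicate 2 of wild type with BV had the largest median SD of any pair, 0.123 on the log2 scale. Each named difference above kept its direction and its call when either of these libraries was left out.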

How the results depend on the processing

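With median-ratio scaling 5195 genes were higher in light, 1854 more positive and 2624 more negative with BV than without, and 3140 more positive and 2339 more negative in wild type than in hmox1. With quantile scaling 2011 were more negative in wild type than in hmox1. With a minimum of 5 RPKM, which leaves fewer genes, 3998 were lower in light and 2135 more negative in wild type than in hmox1. All other count alternatives lay within 1.5 times the reported count. Leaving out 1 library at a time gave 2877 to 3435 genes higher and 6673 to 7590 lower in light, 2217 to 4103 more positive and 1009 to 1610 more negative with BV, and 1106 to 1718 more positive and 2660 to 4950 more negative in wild type. The highest and lowest counts of genes lower in light came without light replicate 2 and without light replicate 1 of wild type with BV.

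The 2 replicate numbers were not stated to pair the libraries, and whether they do was not settled. Deviations of same-numbered light and dark libraries of wild type with BV correlated at 0.155. Over all pairs of groups such correlations ran from −0.0976 to 0.309. With the replicate number as a block, 3269 genes were higher and 7384 lower in light, 3299 and 1318 more positive and more negative with BV, and 1574 and 4059 in wild type against hmox1.

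Of the 48 results for named genes, 41 kept direction and call throughout. Reversed signs were limited to the 4 most abundant fallers, with 0.21 for Cre02.g120150, 0.28 for Cre23.g766250, 0.36 for Cre12.g537800 and 0.23 for Cre03.g182551 under median-ratio scaling, and 0.021 for Cre12.g537800 under quantile scaling; the cause was not tested. A pseudocount of 0.1 ended 2 calls.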

Other observations

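Of the genes left out by the length minimum, 2 had rises in the range of the 12 largest. Cre07.g320450 (146 nt) had 501 and 482 RPKM in light, against 5.04 and 3.09 RPKM in the dark, in wild type with BV (log2 difference 6.63 ± 0.56, limma adjusted p = 5.1e-06). Cre07.g320400 (148 nt) had 96.0 and 84.0 RPKM in light, against 2.34 and 0.203 RPKM in the dark (5.50 ± 0.59, limma adjusted p = 2.4e-05). At such lengths few reads give a high RPKM.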
